A study of Mus musculus with 3 samples.

Results

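IGF binding proteins are secreted proteins that hold insulin-like growth factors (IGFs) in the medium, the matrix or the blood, and so set how much ligand reaches the IGF type 1 receptor. Igfbp2 to Igfbp6 encode members that bind IGFs with high affinity, and Igfbp7 encodes a related matrix protein with low affinity. Fibroblasts are a well-known source of several of them, and proteases such as PAPP-A free the ligand by cutting the binding protein. The transcripts of 6 of these genes, Igfbp2, Igfbp3, Igfbp4, Igfbp5, Igfbp6 and Igfbp7, were taken by name from a count table of 50507 rows, and all 6 were present.

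The libraries came from primary wild-type mouse embryonic fibroblasts (MEFs) of the BL6 strain at passage 2. All cells carried lentiviruses with rtTA and a tet-inducible STEMCCA cassette of Oct4, Sox2, Klf4 and c-Myc, so that the controls carried the cassette too. Reprogramming was started with doxycycline at 2 ug/mL in medium with LIF, 3 uM chiron, which inhibits GSK3, 0.25 uM of the TGF-beta receptor inhibitor Alk5i and 50 ug/mL ascorbic acid. In the screen, cells were transfected with 40 nM of pooled siRNAs against 1 of 33 genes, with a non-targeting siRNA (nt) or without siRNA (Mock), and collected at day 6. Untransfected cells were collected daily from Day00 to Day06. CEL-Seq2, which counts transcript 3′ ends by molecular barcode, gave 127 libraries of 42 conditions that were used: 98 siRNA, 3 nt, 5 Mock and 21 time course libraries, with 3 per siRNA and day except 2 for siMtf1. Each of 3 replicates is a sequenced pool of libraries. The sources used here do not say that the 3 libraries of a condition came from separate embryos, so the p-values measure the spread between these libraries. Each bulk library also mixes cells that do and do not form colonies, and in such samples fewer cells of a type and less RNA per cell cannot be told apart.

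Totals ran from 29656 to 235292 counts per library with a median of 73279, and replicate 3 was the deepest pool, with a median of 127079 against 64227 and 63122. The targeted transcripts could be checked only coarsely at this depth. Wdr5 had 2, 3 and 2 counts in the 3 libraries labelled siWdr5 and 2, 3 and 4 in nt, a ratio of 0.809 with an exact 95% counting interval from 0.256 to 2.44. Its ratio to the 103 other transfected libraries was 0.940, with an interval from 0.374 to 1.97. No fall of Wdr5 was seen at day 6. A ratio under 0.374 on that day lies outside the second interval, and a smaller fall was not detectable at this depth. These counts do not measure any of the targets on earlier days after transfection. Ep300 had 4, 4 and 9 counts in the libraries labelled siEp300 and 0, 3 and 0 in nt. Its ratio to nt was 4.25, with an interval from 1.23 to 22.6. To the other transfected libraries its ratio was 1.47, with an interval from 0.845 to 2.41. Bard1 had 0 counts in siBard1 and 2 in nt, with a ratio to the other transfected libraries of 0 and an upper bound of 2.95. Brca1 had 4 counts in siBrca1 and 2 in nt, a ratio of 3.10 with an interval from 0.445 to 34.3. Its ratio to the other transfected libraries was 1.15, with an interval from 0.309 to 3.00. Falls of Bard1 and Brca1 were not detectable at this depth either. Ep300 was above nt, which goes against the label, and the directions given below for the libraries labelled siEp300 rest on that label alone. All intervals in this text cover counting error only.

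Levels are CPM, that is counts brought to a common library size, with the total of the tested genes and TMM factors as the measure of each library. The 6 transcripts were scarce. Over the 127 libraries Igfbp7 had 527 counts, Igfbp4 319, Igfbp5 219, Igfbp2 162, Igfbp6 88 and Igfbp3 45. Igfbp4, Igfbp5 and Igfbp7 passed the low-count filter, which asked for at least 136.5 CPM in 2 libraries, and the other 3 members did not. The filter itself used the high libraries. Igfbp5 passed through the 3 Day00 libraries and 1 Day03 library, Igfbp7 through 9 libraries of Day00 to Day03, and Igfbp4 through 1 Day06 and 1 siWdr5 library. The share of tested members that changed is therefore no support by itself, so the calls were also made with no filter. The member calls given below from the filtered edgeR fit with nt alone as control passed there too, with adjusted p of at most 0.026 in edgeR. The exceptions were Igfbp7 at Day03 against Day00 and Igfbp7 in the libraries labelled siEp300.

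In the mm10 build (GENCODE vM21 annotation), Igfbp2 lies at chr1:72824503-72852474 on the plus strand and Igfbp5 at chr1:72857932-72874884 on the minus strand, tail to tail with 5457 bases between them. Igfbp3 lies at chr11:7206086-7213923 on the minus strand, Igfbp4 at chr11:99041244-99054392 on the plus strand and Igfbp6 at chr15:102144362-102149511 on the plus strand. Igfbp7 lies at chr5:77349240-77408041 on the minus strand, and an exon of it overlaps an exon of Polr2b on the opposite strand. RefSeq promoters (GRCm38.p6, from 250 bases before to 50 after the start site) were matched for all 6 members. The promoters of Igfbp5 and Igfbp7 are shown because these transcripts fell together in the time course, and that of Igfbp4 because it did not fall. Capitals mark a match to 1 of 4 motifs searched on both strands, the TATA box (TATAA), the site of AP-1 (TGANTCA), the site of TEAD factors (GGAATG) and the E-box (CACGTG), none of which shares letters with another match in these windows.
Igfbp5, chr1:72874816-72875115, minus strand: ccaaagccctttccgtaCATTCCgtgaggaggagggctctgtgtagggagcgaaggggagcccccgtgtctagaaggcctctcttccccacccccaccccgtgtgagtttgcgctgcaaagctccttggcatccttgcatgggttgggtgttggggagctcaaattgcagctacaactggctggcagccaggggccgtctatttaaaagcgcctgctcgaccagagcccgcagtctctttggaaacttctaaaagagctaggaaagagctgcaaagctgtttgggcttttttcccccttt
Igfbp7, chr5:77407996-77408295, minus strand: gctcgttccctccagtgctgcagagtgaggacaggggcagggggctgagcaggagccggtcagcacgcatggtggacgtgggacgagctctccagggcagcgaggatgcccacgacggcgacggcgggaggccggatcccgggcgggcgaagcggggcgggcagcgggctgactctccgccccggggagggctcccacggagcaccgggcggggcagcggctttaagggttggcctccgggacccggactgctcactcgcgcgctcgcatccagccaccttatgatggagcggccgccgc
Igfbp4, chr11:99040994-99041293, plus strand: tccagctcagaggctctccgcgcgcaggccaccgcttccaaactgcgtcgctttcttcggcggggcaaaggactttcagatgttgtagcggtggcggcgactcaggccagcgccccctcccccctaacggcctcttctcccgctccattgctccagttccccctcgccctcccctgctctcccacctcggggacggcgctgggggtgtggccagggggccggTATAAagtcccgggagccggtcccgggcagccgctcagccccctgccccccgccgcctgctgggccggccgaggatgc

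The Igfbp5 window holds a match on the reverse strand to the TEAD letters (CATTCC), 233 bases before the start site, a motif found in 14.7% of 32851 promoters. The Igfbp4 window holds TATAA 28 bases before the start site, as do 24.9% of promoters at any position. None of the 4 motifs is in the Igfbp7 window, where TGANTCA is found in 7.81% and CACGTG in 7.15% of promoters.

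Igfbp5 and Igfbp7 fell steeply over the time course, with a drop on the first day and another from Day03 to Day04. Their means were higher at Day03 than at Day02, but that step did not pass the test for either. Igfbp5, which binds IGFs in the matrix, was at 267, 254 and 414 CPM in the 3 Day00 libraries, from 13, 12 and 50 counts. At Day01 the libraries held 22.9, 36.7 and 11.4 CPM and at Day06 44.5, 18.1 and 0 CPM. No Day00 library overlapped with those of Day01 or Day06. The log2 fold change against Day00 was -3.68 ± 0.67 (SE) at Day01 and -4.24 ± 0.69 at Day06 (edgeR quasi-likelihood test, adjusted p = 1.0e-05 and 1.3e-07, n = 3 libraries each). In counts, 75 at Day00 against 4 at Day06 made it 21.9-fold lower at Day06, with an interval from 8.20 to 82.4. Replicate 3 holds 50 of the 75 counts, and the log2 change was -3.01 without it and -5.66 without replicate 1, both past the threshold.

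Igfbp7, the low-affinity matrix protein, was at 452, 360 and 1059 CPM at Day00, from 22, 17 and 128 counts. The Day01 libraries held 206, 97.7 and 137 CPM, and the Day06 libraries 0, 0 and 47.7 CPM. Every Day00 library lay above those of Day01 and Day06, whereas 1 Day03 library reached into the Day00 range. The log2 fold change against Day00 was -2.15 ± 0.43 at Day01, where 9.89% of all genes were called, and -4.69 ± 0.54 at Day06 (edgeR, adjusted p = 5.4e-05 and 9.3e-14). In counts, 167 against 7 made it 27.9-fold lower at Day06, with an interval from 13.2 to 70.4. Without replicate 3, which holds the library at 1059 CPM, the Day01 change was -1.55 with an adjusted p of 0.12 in edgeR, and limma on the deposited log2 values did not call Day01 either (adjusted p = 0.22). The Day06 fall stayed past the threshold without any replicate in turn. Its size did not hold as well, since without replicate 3 the Day06 libraries were at 0 and the fitted log2 change of -7.57 depends on the prior count.

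**Figure D1:**
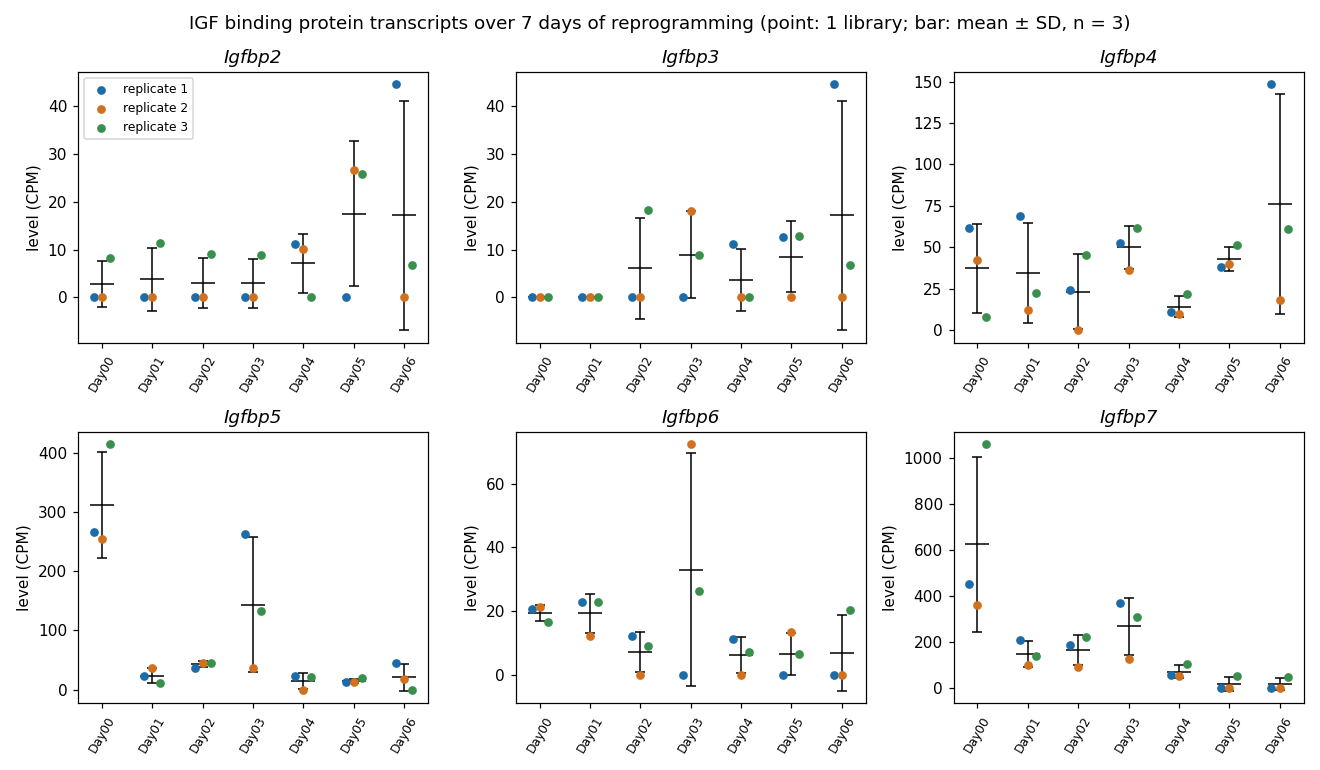
Level in CPM (y axis) of the 6 IGF binding protein transcripts at each day (x axis); points are libraries coloured by replicate, and bars are the mean ± SD of 3 libraries. Igfbp5 runs from 254 to 414 CPM at Day00 and from 0 to 44.5 CPM at Day06, with a higher Day03 in replicates 1 and 3, and the other transcripts stay under 150 CPM apart from Igfbp7.

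Both transcripts were also lower than Day00 at Day02, Day04 and Day05, by log2 changes between -2.87 and -4.26 for Igfbp5 and between -1.90 and -4.68 for Igfbp7, beside 11.6%, 18.7% and 31.9% of genes called on these days. The Day02 call of Igfbp7 was lost in limma on the deposited log2 values (adjusted p = 0.13) and without replicate 3 (0.078, edgeR). Of the 3013 genes tested, 22.2% passed the test at Day06 against Day00 in either direction and 11.5% were lower, and the 2 members that passed were both lower. Over all 7 days 42.5% of the genes changed. Igfbp5 and Igfbp7 were among them (edgeR F test, adjusted p = 1.9e-13 and 1.5e-20) and Igfbp4 was not (adjusted p = 0.15). With no filter, Igfbp5 and Igfbp7 were lower than Day00 in edgeR at Day02, Day04, Day05 and Day06 too, with adjusted p = 4.7e-08 and 2.3e-16 at Day06. The 6 comparisons with Day00 share its 3 libraries.

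The course of both transcripts was not even. Igfbp5 averaged 312 ± 88.8 CPM (SD, n = 3) at Day00, 23.7 ± 12.7 at Day01, 42.6 ± 5.09 at Day02, 144 ± 114 at Day03 and 14.7 ± 12.8 at Day04. It then stayed at 15.1 ± 3.68 at Day05 and 20.9 ± 22.4 at Day06. At Day03 the libraries held 262, 36.1 and 132 CPM, so that replicates 1 and 3 were high and replicate 2 was near its Day02 level. The step up from Day02 was not past the threshold (log2 1.70 ± 0.64, adjusted p = 0.12, edgeR, beside 2.82% of genes called), although 32 against 11 counts gave a ratio of 2.98 with an interval from 1.46 to 6.55. The step down to Day04 was called (log2 -3.08 ± 0.72, adjusted p = 9.0e-04, edgeR, beside 11.9% of genes called), and without replicate 1 its adjusted p was 0.072.

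Igfbp7 averaged 624 ± 380 CPM at Day00, 147 ± 55.0 at Day01, 165 ± 66.0 at Day02, 267 ± 125 at Day03, 69.4 CPM at Day04, 17.2 ± 29.8 at Day05 and 15.9 ± 27.6 at Day06. At Day03 its libraries held 367, 127 and 308 CPM, with replicate 2 again the lowest. The rise from Day02 was not past the threshold (log2 0.67 ± 0.43, adjusted p = 0.48, edgeR), and the fall to Day04 was (log2 -1.89 ± 0.47, adjusted p = 0.0023), though not without replicate 1 (adjusted p = 0.074) or in limma on the deposited log2 values (0.12). The call at Day03 against Day00 (log2 -1.23 ± 0.38, adjusted p = 0.021, beside 10.9% of genes called) was lost in 6 of 11 alternatives. Without replicate 3 the change was -0.77 with an adjusted p of 0.51 and without replicate 2 the adjusted p was 0.082 (edgeR). It was 0.078 with no filter and 0.076 with no block in edgeR, 0.10 in DESeq2 and 0.39 in limma on the deposited log2 values. At Day03 Igfbp5 was not called against Day00 (log2 -1.18 ± 0.49, adjusted p = 0.11, edgeR). In the order of the means, the neighbours Day02 and Day01, and Day05 and Day06, did not pass the test for either transcript, although the Igfbp5 libraries of Day01, at 11.4 to 36.7 CPM, lay just below those of Day02, at 36.7 to 45.6 CPM (adjusted p = 0.73, edgeR).

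Igfbp4, which binds both IGFs and is the main substrate of PAPP-A, did not follow them. Its Day00 libraries held 61.6, 42.4 and 8.28 CPM and its Day06 libraries 148, 18.1 and 61.4 CPM, and the groups overlapped. The log2 fold change was 1.32 ± 0.73 (adjusted p = 0.20, edgeR), and the ratio of 20 to 6 counts was 2.86, with an interval from 1.11 to 8.69. The lowest mean was 14.4 ± 6.43 CPM at Day04, and no step from day to day passed the test. Over the steps from Day01 to Day02, Day04 to Day05 and Day05 to Day06, 4.81%, 4.78% and 7.87% of all genes were called.

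The 3 members under the filter were near the limit of detection. Igfbp2, a binding protein of embryonic and epithelial tissues, had 1 count in all on each of Day00 to Day03, 2 at Day04, 6 at Day05 and 4 at Day06. Igfbp3, which carries most circulating IGF, had 0 counts on Day00 and Day01, where 3 counts would have been the limit, and 4 at Day06, all in replicates 1 and 3. Igfbp6, which prefers IGF2, had 4 counts at Day00, 7 at Day03 and 3 at Day06. In a fit without a filter on 30778 genes, none of the 3 passed at Day06 against Day00, and the edgeR p-value before adjustment was 0.038 for Igfbp3 (log2 3.22 ± 1.55, adjusted p = 0.69). On the deposited log2 values limma called none of the 3 either, with 0.037 before adjustment for Igfbp3. Changes of these 3 over the days were not detectable at this depth.

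Many markers of the starting cells were also lower at Day06. The summed level of 14 fibroblast markers, all detected at Day00, ran from 7449 to 8769 CPM at Day00 and from 3328 to 4237 at Day06. Of the 11 fibroblast markers tested, 7 were lower and 2 higher at Day06, the higher ones being the matrix proteoglycans Dcn (log2 3.18 ± 0.54, adjusted p = 4.4e-07, edgeR) and Lum (log2 3.67 ± 0.86, adjusted p = 3.9e-04). Thy1 and Col3a1 were not called. The sum of 7 smooth muscle and pericyte markers ran from 4297 to 5557 CPM at Day00, from 2746 to 3477 at Day01, from 475 to 640 at Day03 and from 148 to 513 at Day06. All 4 of these that were tested were lower at Day06. The sum of 9 epithelial and early colony markers went the other way. It ran from 7.69 to 21.2 CPM at Day00, from 3 counts, and from 90.5 to 296 at Day06, from 51 counts. The 4 myoblast markers were at 0 in every Day00 library, 6 of 7 endothelial markers, Pecam1 and Cdh5 among them, were at 0 there, and 7 macrophage markers summed to 4 counts. The part of the marker changes in the falls of Igfbp5 and Igfbp7 was not tested.

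Transfection with control siRNA did not give a called change in any of the 3 tested members. Igfbp4 was at 50.0, 0 and 32.7 CPM in nt, below Day06 by a log2 change of -1.36 ± 0.70 (adjusted p = 0.14, edgeR), beside 26.6% of genes called. Igfbp5 had 0 counts in the 3 nt libraries, out of 298392 counts in all, which allows a pooled level of up to 10.1 CPM of all counts. It also had 0 counts in the 5 Mock libraries. In that comparison with Day06 edgeR gave 1 member, Igfbp5, a p-value under 0.05 before adjustment, and DESeq2 and limma called 0 members with 2 before adjustment each. Igfbp7 was at 0, 0 and 24.5 CPM in nt and between 0 and 49.7 CPM in Mock. No tested member differed between Mock and nt, where 1.56% of genes were called, and the smallest edgeR p-value before adjustment among them was 0.22. DESeq2 and limma also called 0 members there, with 0 and 1 before adjustment.

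Across the 33 siRNAs, Igfbp5 had at least 1 count in 41 of 98 libraries, with 82 counts in all, or a pooled 10.1 CPM of all counts, against 0 of 8 nt and Mock libraries, where a count of 0 allows up to 5.33 CPM. Only 3 of the 99 tests of a member and an siRNA against nt passed the threshold, and all were higher, beside 1.29% higher among all gene and siRNA pairs and 2.57% in either direction. All comparisons share the 3 nt libraries. The calls were Igfbp4 and Igfbp5 in siWdr5 and Igfbp7 in the libraries labelled siEp300.

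Pooled siRNAs against Wdr5, a core subunit of the complexes that methylate lysine 4 of histone H3, gave the highest Igfbp4 and the highest Igfbp5 mean of all 33 siRNAs. Each pool held 3 siRNAs per gene by the study's methods. The antisense strands of 2 of those against Wdr5 are shown because the libraries that follow turn on them, with bases 2 to 8, the seed, in capitals.
Wdr5 siRNA, exon 3, antisense: cAUAGUUUggcuuaacugg
Wdr5 siRNA, exon 7, antisense: cACGGUUGaaaugaacggc

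Igfbp4 was at 106, 156 and 152 CPM in the siWdr5 libraries, from 8, 11 and 16 counts, and all 3 lay above the nt libraries, at 0 to 50.0 CPM. The log2 fold change was 2.27 ± 0.64 (adjusted p = 0.0037, edgeR, n = 3 each), and 35 against 7 counts gave a ratio of 5.20 with an interval from 2.28 to 13.9. Replicate 2 holds both the nt library at 0 CPM and the highest siWdr5 library, and without it the log2 change was 1.64 with an adjusted p of 0.12. Because Igfbp4 passed the filter partly through a siWdr5 library, fits with other filters were compared. With no filter the adjusted p was 0.026 and with a minimum count of 3 it was 0.010 (edgeR).

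Igfbp5 was at 79.2, 71.1 and 38.0 CPM in siWdr5, from 6, 5 and 4 counts, and at 0 in nt. Every siWdr5 library lay above every nt and Mock library. The 15 counts were at least 5.20-fold higher than the floor of 3 counts over the nt group, and the edgeR test gave an adjusted p of 0.0021, between 6.3e-05 and 0.034 over 11 alternatives and 0.0050 with no filter. It passed without each replicate in turn. For siWdr5 against nt, 27.2% of all tested genes were called and 12.2% were higher, so that these 2 calls stand among many. Igfbp7 was at 26.4, 42.6 and 38.0 CPM in siWdr5, above the nt libraries at 0, 0 and 24.5 CPM, but 9 against 3 counts did not pass (log2 1.53 ± 0.96, adjusted p = 0.23, edgeR), with a ratio of 3.12 and an interval from 0.779 to 17.9.

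**Figure D2:**
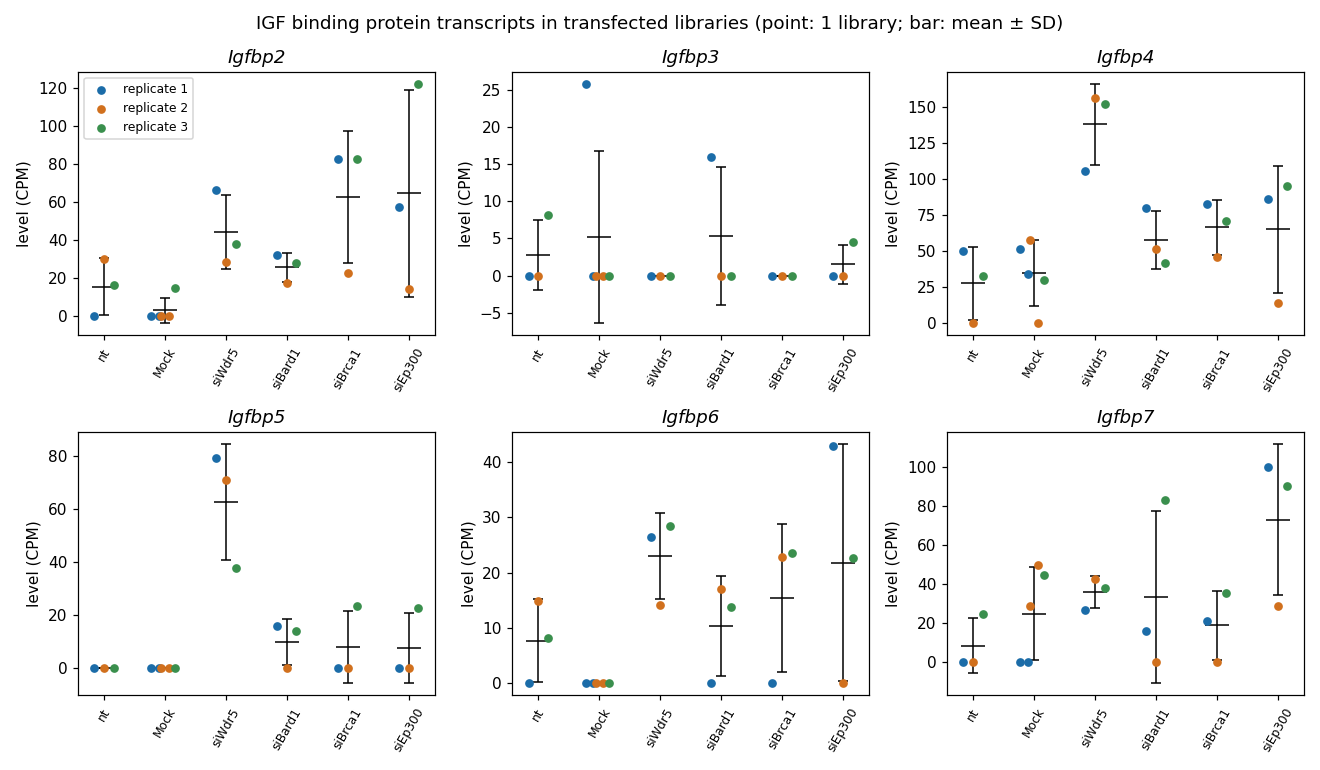
Level in CPM (y axis) of the 6 transcripts in nt, Mock and 4 siRNA conditions (x axis); points are libraries coloured by replicate, and bars are the mean ± SD of 5 Mock or 3 other libraries. Igfbp4 lies between 106 and 156 CPM in siWdr5 and at or under 50.0 CPM in nt, and Igfbp5 is at 0 in every nt and Mock library.

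The siWdr5 libraries were also set beside the time course. Against Day00, Igfbp7 was lower (log2 -4.10 ± 0.51, adjusted p = 6.9e-12, edgeR), Igfbp5 was lower (log2 -2.38 ± 0.55, adjusted p = 3.8e-04) and Igfbp4 higher (log2 2.22 ± 0.67, adjusted p = 0.0097), beside 17.1% of genes called. The Igfbp5 call was lost without replicate 3 (log2 -1.81, adjusted p = 0.098, edgeR) and the Igfbp4 call on the deposited log2 values (1.48, adjusted p = 0.15, limma). Against Day03, Igfbp5 was not called lower (log2 -1.21 ± 0.60, adjusted p = 0.22) whereas Igfbp7 was (log2 -2.86 ± 0.56, adjusted p = 4.2e-05), beside 9.99% of genes called. Against Day06 no member passed edgeR, beside 5.41% of genes called, and 1 had a p-value under 0.05 before adjustment, with Igfbp5 at a log2 change of 1.86 ± 0.87 (adjusted p = 0.23) and Igfbp4 at 0.90 ± 0.53 (adjusted p = 0.39).

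Bard1 and Brca1, whose products form a ubiquitin ligase of DNA repair, were targeted in the same screen. In siBard1, Igfbp4 was at 79.8, 51.4 and 41.7 CPM and Igfbp5 at 15.97, 0 and 13.9 CPM. In siBrca1, Igfbp4 was at 82.7, 45.6 and 70.7 CPM and Igfbp5 at 0, 0 and 23.6 CPM. Most of these Igfbp4 libraries lay above the nt range, yet no tested member passed against nt in either condition, beside 10.3% and 4.22% of genes called. The smallest adjusted p was 0.21 in siBard1, for Igfbp7, and 0.46 in siBrca1 (edgeR), and none was under 0.05 before adjustment. DESeq2 and limma also called 0 members in both, with 0 and 0 before adjustment in siBard1 and 0 and 2 in siBrca1. Nor was siWdr5 shown to differ from them. Igfbp5 was higher in siWdr5 by log2 2.28 ± 0.92 than in siBard1 (adjusted p = 0.11) and by 2.28 ± 1.03 than in siBrca1 (adjusted p = 0.16), and Igfbp4 by 1.36 ± 0.56 (adjusted p = 0.13) and 1.05 ± 0.58 (adjusted p = 0.29), values from edgeR that did not pass beside 8.36% and 9.99% of genes called. Of the 3 tested members, 2 and 1 had p-values under 0.05 before adjustment.

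In the libraries labelled siEp300, whose target encodes a histone acetyltransferase, Igfbp7 was at 100, 28.4 and 90.5 CPM, from 7, 2 and 20 counts, and all 3 lay above nt. The log2 fold change was 2.54 ± 0.81 (adjusted p = 0.037, edgeR, beside 5.68% of genes called), and the ratio of 29 to 3 counts was 7.25, with an interval from 2.25 to 37.2. This call was lost in 7 of 10 alternatives that gave an adjusted p, with each replicate left out in turn (adjusted p from 0.083 to 0.24) and without a filter (0.17) among them. The direction was the same in all 10, and without the replicate block the adjusted p was 0.11. siCdk1, against the mitotic kinase, had the highest Igfbp7 mean of the 33 siRNAs, with 66.4, 125 and 40.4 CPM, but the edgeR adjusted p against nt was 0.077 (log2 2.56 ± 0.86, beside 2.59% of genes called).

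Igfbp2 had its highest mean in the libraries labelled siEp300, at 57.2, 14.2 and 122 CPM, and next in siBrca1, at 82.7, 22.8 and 82.5 CPM, whereas nt held 0, 29.9 and 16.3 CPM. The ratio of counts to nt was 5.998, with an interval from 2.13 to 23.3, for the libraries labelled siEp300 and 4.66, with an interval from 1.41 to 19.8, for siBrca1. Igfbp2 did not pass the filter, and in the fit without one neither passed the test (log2 2.21 ± 0.75 and 1.87 ± 0.83, adjusted p = 0.44 and 1, edgeR). Of the 32 counts in the siEp300 group, 27 came from replicate 3, the deepest library of all.

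The other siRNAs filled a low range. Condition means of Igfbp2 ran from 0 to 64.5 CPM over the 33 siRNAs with a median of 17.3, those of Igfbp4 from 0 to 138 with a median of 24.7, those of Igfbp5 from 0 to 62.8 with a median of 7.60 and those of Igfbp7 from 0 to 77.1 with a median of 18.8. Igfbp3 and Igfbp6 stayed at or under 26.7 and 26.8 CPM, and had 0 counts in 12 and 8 of the 33 conditions. After siWdr5 the next Igfbp5 mean was in sip53, against the tumour suppressor p53, with 42, 28.5 and 41.8 CPM from 6 counts. These 3 libraries lay above all nt and Mock libraries too, with an edgeR adjusted p of 0.12, beside 1.96% of genes called. On the deposited log2 values, limma gave an adjusted p of 0.041 for it. For Igfbp4 the next means were 66.3 ± 18.9 CPM in siBrca1 and 65.0 ± 44.2 in siEp300.

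**Figure D3:**
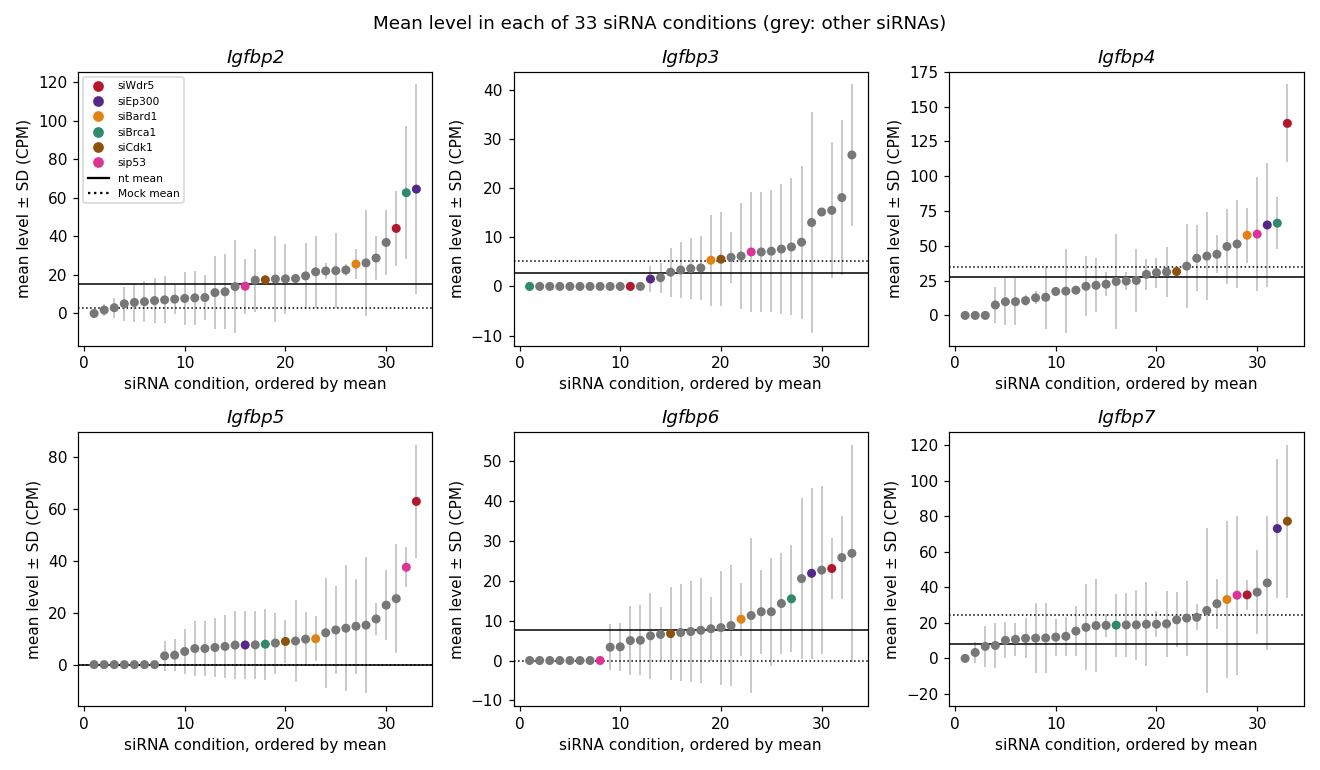
Mean level ± SD in CPM (y axis) of each transcript in the 33 siRNA conditions, ordered by mean on the x axis, with 6 siRNAs in colour and the nt and Mock means as solid and dotted lines. siWdr5 is the highest point for Igfbp4, at 138 CPM, and for Igfbp5, at 62.8 CPM, and siCdk1 and siEp300 are the highest for Igfbp7, at 77.1 and 73.0 CPM.

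Levels of fibroblast and smooth muscle markers also differed from nt in these libraries. The fibroblast sum ran from 2061 to 2703 CPM in nt and from 2306 to 3721 in Mock. It ran from 5366 to 6154 in siWdr5 and from 2867 to 4292 in siEp300. In siBard1 it ran from 3283 to 4154 and in siBrca1 from 3089 to 4166. Of these siRNA groups, only siWdr5 lay wholly above Mock. All 14 markers were detected in each group. Of the 11 tested, 7 were higher in siWdr5 and none lower, while Dcn, Lum, Postn and S100a4 were not called. In the libraries labelled siEp300, 4 were higher and 1, Dcn, was lower (log2 -1.22 ± 0.31, adjusted p = 0.0047, edgeR). The smooth muscle sum ran from 62.9 to 74.9 CPM in nt and from 40.1 to 188 in Mock. It ran from 348 to 569 in siWdr5 and from 425 to 739 in siBard1. In siBrca1 it ran from 273 to 602 and in siEp300 from 437 to 896. A list of 5 senescence and arrest genes summed to 306 to 387 CPM in nt and to 253 to 664 in Mock, where the median was 612. The sums were 649 to 910 in siWdr5, 586 to 789 in siBard1, 525 to 733 in siBrca1 and 544 to 771 in siEp300. Each of these siRNA ranges overlapped that of Mock, and Il6 was at 0 in each group. Of this list Cdkn1a, for the cell cycle inhibitor p21, was higher than nt in siWdr5 (log2 1.05 ± 0.22, adjusted p = 1.0e-04, edgeR) and in siEp300 (log2 0.86 ± 0.22, adjusted p = 0.0070). The epithelial and early colony sum of 9 markers ran from 22.5 to 63.2 CPM in siWdr5, from 12 counts. In nt it ran from 112 to 186, from 40 counts, and in Mock from 40.1 to 180, which overlapped siWdr5. It ran from 0 to 73.3 in siBard1, from 0 to 147 in siBrca1 and from 99.5 to 158 in siEp300. Differences in these sums were not tested. In siWdr5, all 4 myoblast markers and 5 of 7 endothelial markers, Pecam1 and Cdh5 among them, were at 0, and 7 macrophage markers summed to 1 count. The part of these marker differences in the Igfbp4, Igfbp5 and Igfbp7 levels was not tested.

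Igfbp5 and Igfbp7 had similar profiles over the days and Igfbp4 did not follow them. Over the 42 condition means (log2 CPM with a prior count of 2, pool removed), Pearson's r across conditions was 0.79 between Igfbp5 and Igfbp7, 0.31 between Igfbp4 and Igfbp5 and 0.24 between Igfbp4 and Igfbp7. Over the 7 days alone these were 0.86, 0.11 and -0.28. These are descriptions of means from shared pools and shared depth. Igfbp5 and Igfbp7 passed the filter through libraries of Day00 to Day03, so their r is no support by itself. The 42 conditions include the 7 days, and no r was taken over the transfected conditions alone. Among the siRNAs the highest Igfbp5 means were in siWdr5 and sip53 (62.8 and 37.4 CPM). The highest Igfbp7 means were in siCdk1 and siEp300 (77.1 and 73.0 CPM). The plot of Igfbp5 against Igfbp7 shows that Day00 and Day03 lie at the top of both axes.

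**Figure D4:**
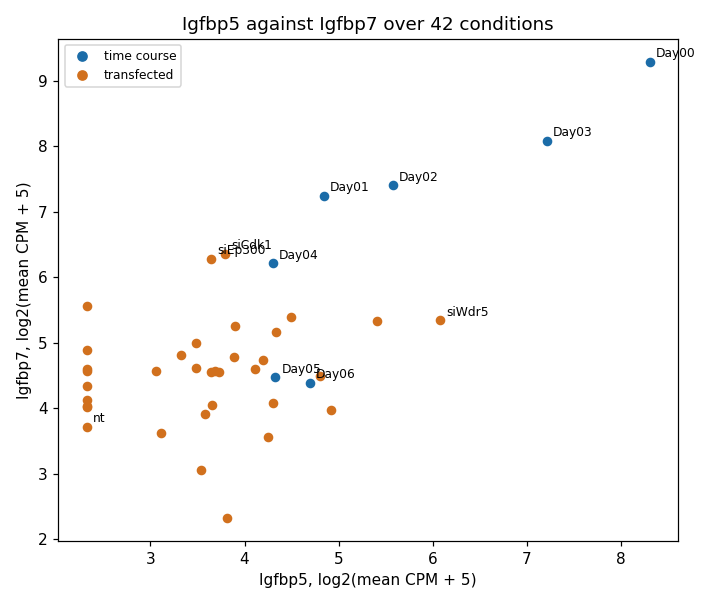
Mean level of Igfbp5 (x axis) and Igfbp7 (y axis), both as log2(mean CPM + 5), for each of 42 conditions; blue points are days and orange points transfected conditions. The days run from Day00, at 312 and 624 CPM, down to Day06, at 20.9 and 15.9 CPM, and siWdr5 lies to the right of the other transfected conditions.

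The genes most like each tested member were found among the 3013 tested genes. For Igfbp5 over 42 conditions they were Prss35, for a secreted protease-like protein (r = 0.88), Fhl2, for a LIM domain protein (0.86), and Col5a2, a chain of collagen V (0.83). Over 7 days they were Tmem2 (0.99), Prss35 (0.98) and Me1 (0.98). For Igfbp7 over all conditions they were Hif1a, the hypoxia-inducible factor (r = 0.87), Cald1, for the actin-binding caldesmon (0.87), and Cryab, a small heat shock protein (0.85), and over the days Mid1, Timp3 and Wls (each 0.99). For Igfbp4 r was lower over all conditions, with Cd63, Plpp3 and Sfrp1, a secreted Wnt antagonist, at 0.69 each, and over the days Anp32a (0.96), Trappc4 (0.88) and Gm5523 (0.88).

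The rest of the IGF axis was described by a list of 25 genes, of which 6 passed the filter. Among ligands, Igf2, a growth factor of the fetus, was at 472, 318 and 364 CPM at Day00 and 282, 235 and 307 at Day06, and did not pass between these days (log2 -0.42 ± 0.29, adjusted p = 0.33, edgeR). It changed over the 7 days (adjusted p = 1.7e-04), with its highest mean, 533 CPM, at Day03. In nt it was lower than at Day06 (99.9, 89.7 and 73.5 CPM, log2 -1.73 ± 0.38, adjusted p = 1.8e-04), and in siWdr5 higher than in nt (343, 682 and 683 CPM, log2 2.73 ± 0.34, adjusted p = 5.2e-12). In siBard1, at 208, 171 and 257 CPM, it was higher than in nt too (log2 1.39 ± 0.40, adjusted p = 0.010). The 5 Mock libraries averaged 192 CPM of Igf2 and were not called against nt (log2 1.09 ± 0.42, adjusted p = 0.19, edgeR).

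Of the receptors, Igf1r, which signals, was called in none of the comparisons made for it, and Igf2r, which takes up IGF2 for degradation, changed over the days (adjusted p = 0.0025, edgeR F test) with means between 41.3 CPM at Day05 and 178 at Day03. Stc1, for stanniocalcin 1, an inhibitor of PAPP-A, was at 185, 212 and 273 CPM at Day00 and 148, 72.3 and 68.2 at Day06 (log2 -1.35 ± 0.42, adjusted p = 0.0095). It was higher than nt in siWdr5 (log2 1.56 ± 0.58, adjusted p = 0.034) and in siBard1 (log2 1.86 ± 0.56, adjusted p = 0.015). Grb10, an adaptor that restrains insulin and IGF receptor signalling, was at 328, 296 and 480 CPM at Day00 and 119, 253 and 116 at Day06 (log2 -1.41 ± 0.32, adjusted p = 2.9e-04). In all, 2 of the 6 tested axis genes were lower at Day06, none was higher, and 4 changed over the days, where 11.5% of all genes were lower at Day06 and 42.5% changed over the days. Without replicate 2 the count of axis genes called at Day06 was 1, and without replicate 3 it was 0. Igf2bp2, for an RNA-binding protein, was not called.

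**Figure D5:**
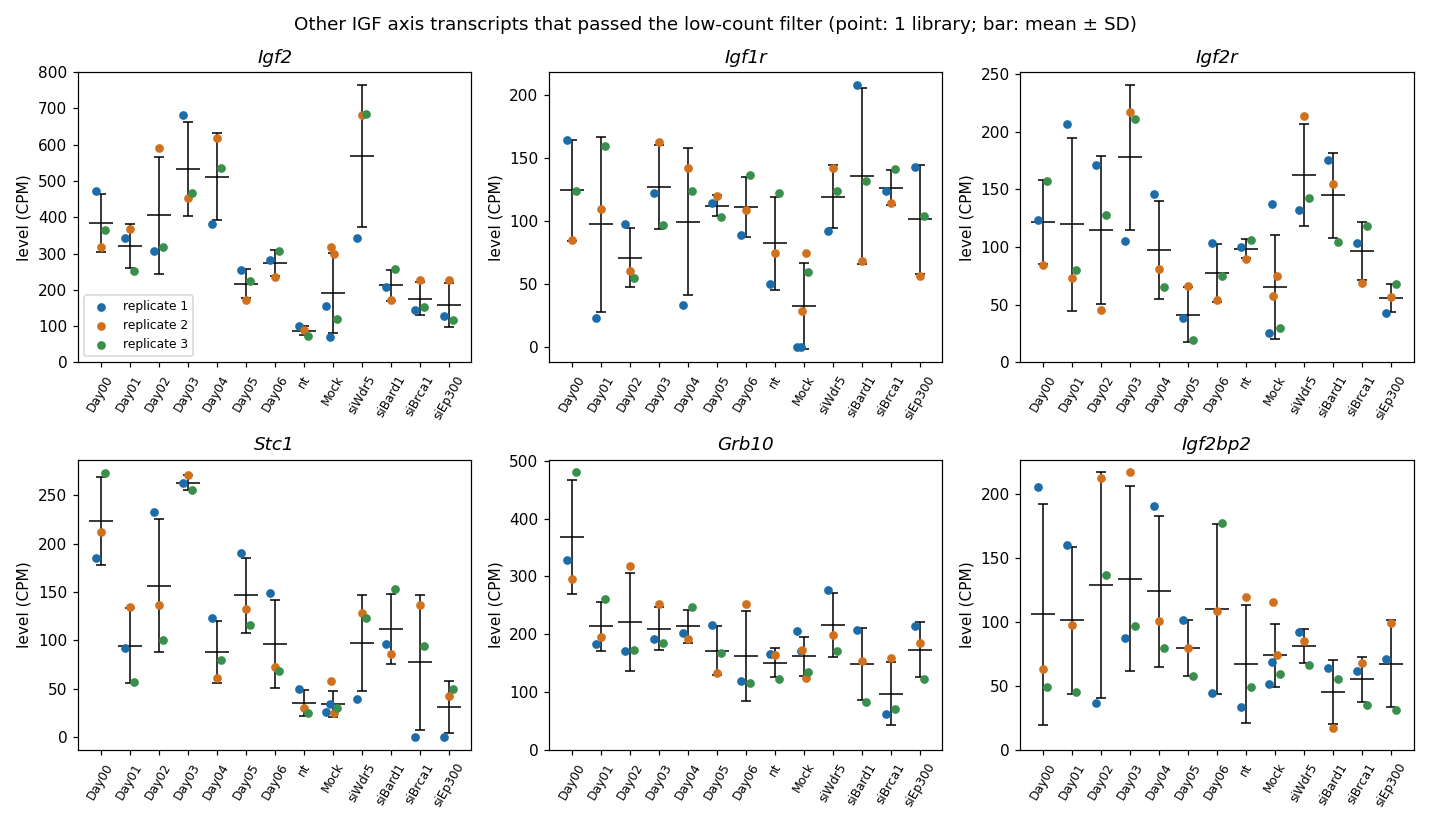
Level in CPM (y axis) of the 6 other IGF axis transcripts that passed the filter, over 7 days and 6 transfected conditions (x axis); points are libraries coloured by replicate, and bars are the mean ± SD. Igf2 lies between 73.5 and 99.9 CPM in nt and between 343 and 683 CPM in siWdr5, and Grb10 is highest at Day00.

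Among the axis genes under the filter, the proteases Pappa and Adam12 had 13 and 10 counts at Day00 and 1 and 0 at Day06. With a minimum count of 3 in the filter, 18 listed genes were tested and Adam12 (log2 -4.72 ± 1.45, adjusted p = 0.023) and Pappa (log2 -3.57 ± 1.14, adjusted p = 0.030) were lower at Day06 in edgeR, beside Grb10 and Stc1. Igf1 had 3 counts at Day00 and 1 at Day06, and Igfbp1, Igfbpl1, Igfals and Pappa2 had 0 counts at Day00, Day06, in nt and in siWdr5.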

How the data were processed

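RNA of mouse embryonic fibroblasts early in reprogramming was profiled by CEL-Seq2 in 3 sequenced pools, and column headings of the deposited tables gave each library its condition and replicate. By the study's methods, the authors aligned reads to mm10 with Bowtie2, took gene models from GENCODE vM13, counted molecules with the CEL-Seq2 pipeline, and discarded poor libraries. The deposited counts carry no normalization. The deposited log2 values are CPM on a log2 scale, which the authors had scaled by size factors and corrected for pool. The labels name mm10 and GRCm38. The members and gene lists were chosen with earlier results of these data known.

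The 127 libraries in both tables, out of 129 with counts, were fitted together with edgeR 4.0.16 in R 4.3.3 (quasi-likelihood F test, TMM scaling, filterByExpr by condition with a minimum count of 10, terms for condition and pool, 83 residual degrees of freedom). Each comparison was adjusted on its own by the Benjamini-Hochberg method, with 0.05 as the threshold. The 2 libraries left out held 6403 and 7981 counts, and the others 29656 to 235292. Mock columns repeat their name within a replicate, and the log2 Mock column of replicate 3 was assigned by its correlation with the count columns (r = 0.92 for one, 0.017 for the other). Each SE is the log2 fold change divided by the square root of its F statistic. Ratios of counts used all counts of a library, exact 95% intervals and a floor of 3 counts over the group. The replicate number marks a shared pool, so the pool was kept as a block. The median correlation of deviations from the condition mean was 0.098 for libraries of the same number and -0.068 for others.

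Genes were named by rule, namely the 6 members, the axis genes past the filter out of 25 listed, the 3 tested genes most similar to each tested member, and the siRNAs in which a member passed. Other genes and siRNAs named, and the comparisons of siWdr5 with days, were chosen after their values were seen. Alternatives used RLE scaling, DESeq2 1.42.0, limma 3.58.1 on the log2 values, no block, other filters, other libraries, nt and Mock together, and each replicate left out. The tests were checked on simulated counts.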

Additional observations from a re-analysis of the deposited data

Results flagged for a closer look

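Among the 5 Mock libraries, the highest value of Igfbp2 stood apart at 14.9 CPM, in 1 library of replicate 3, and the highest value of Igfbp3 stood apart at 25.8 CPM, in 1 library of replicate 1, because the other 4 libraries were at 0 for each gene. Each value is 1 count. The rate of about 1 in 20 groups that chance marks holds for continuous values, whereas with a single count among 5 libraries the gap always equals the whole range. Of the 4 members with any count in Mock, 2 were marked.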

How the results depend on the processing

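Neither the falls of Igfbp5 and Igfbp7 from Day00 to Day06 nor the changes of both over all days lost their call under any of the 11 alternatives, with the Day06 log2 change between -5.66 and -3.01 for Igfbp5 and between -7.57 and -4.43 for Igfbp7. With nt and Mock together as control, 1 member, Igfbp5, was lower than at Day06 (edgeR, adjusted p = 0.047), against 0 in nt alone. The 2 members called in siWdr5 became 1 when the 2 discarded libraries were added, where Igfbp4 was not tested, and 0 when only the libraries compared were fitted, where no member passed the filter. The 3 member and siRNA pairs became 0 in that last fit for the same reason. With each replicate left out in turn, the siWdr5 count ran from 1 to 2, the count of pairs from 1 to 2 and the count of axis genes at Day06 from 0 to 2, and with a minimum count of 3 that last count was 4. The cause of the losses was not tested, except that Igfbp4 was not among the genes tested without replicate 3. Igfbp7 lost its Day01 and Day02 calls under limma (adjusted p = 0.22 and 0.13) and without replicate 3 (0.12 and 0.078). Without the replicate block the member counts for Day06 against Day00 and for siWdr5 against nt were both 2, the pairs were 2, and the Day03 call of Igfbp7 was lost as well (adjusted p = 0.076). Over all genes, the block removed moved the calls in nt against Day06 from 802 to 461, in siBard1 from 311 to 178, in siBrca1 from 127 to 43, in siEp300 from 171 to 61, in Mock against nt from 47 to 10 and over the days from 1281 to 849. Over the alternatives the calls ran from 343 to 660 at Day06 against Day00 (668 as reported), from 180 to 1009 in nt against Day06, from 1 to 73 in Mock against nt, from 43 to 406 in siBard1, from 29 to 139 in siBrca1, from 3 to 381 in siEp300, from 155 to 1002 in siWdr5 (821 as reported) and from 662 to 1316 over the days. RLE scaling moved the median log2 change of all genes to 0.18 for siWdr5, to -0.11 for Day06 against Day00 and to -0.15 for nt against Day06, and no called member changed direction under it. At this depth Igfbp2, Igfbp3 and Igfbp6 did not pass the filter, while in the siRNA libraries Igfbp5 had fewer counts (82) than Igfbp2 (141).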
